A study of Drosophila melanogaster with 6 samples.

Results

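The Obstructor genes encode secreted proteins that bind chitin, the sugar polymer of the insect cuticle and of the embryonic tracheal lumen. Members were the probe sets of the array whose only gene symbol, updated to current use, is obst-A, obst-B, obst-E, obst-F, obst-G, obst-H or Gasp. These 7 genes are read by 8 of the 18952 probe sets, with obst-E read by 2 and each other member by 1, among 11982 named genes in all. Transcript levels were measured on 1-colour Affymetrix arrays of whole embryos at stage 16, and each of 3 genotypes had 2 arrays. The groups are grh overexpression (69B>grh overexpression), grh mutant (grhB37 mutant) and wild type (wildtype (w1118)), and the series asked what Grainy head (Grh), an epidermal transcription factor encoded by grh, does to transcript levels. The 69B driver is a GAL4 line active in the embryonic epidermis, so the transgene is driven in part of the embryo only. No group carried the driver alone, and nothing in the labels ties the strains to a common background or the 2 arrays of a genotype to separate embryo collections. Effects of grh, strain and driver cannot be told apart, and the p-values reflect only how far these arrays differ, which may be technical.

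Obstructor proteins carry a signal peptide and several chitin-binding domains of the peritrophin type, and belong to the cuticular proteins analogous to peritrophins. Obst-A, Obst-B, Gasp (also named Obst-C), Peritrophin-A (Obst-D) and Obst-E form a subgroup found across insects, while Obst-F to Obst-J form a second subgroup. In the embryo chitin is made at the apical face of epidermal and tracheal cells, then bound, organised and deacetylated outside the cell, and chitin-binding proteins act at that step.

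The 6 arrays had medians between 2.99 and 3.16 on the log2 scale, and replicate arrays differed by a median of 0.059 to 0.070 log2 units over the rows tested. The probe set used for grh read 12.27 and 12.38 in grh overexpression and 9.05 and 9.02 in grh mutant, against 7.36 and 7.45 in wild type. The value was therefore higher, not lower, in the arrays labelled grh mutant (log2 difference 1.63, limma adjusted p = 1.59e-10), and a direction drawn from them rests on the label. A second grh probe set read 2.39 and 2.52 in grh overexpression and 3.52 and 3.54 in grh mutant, against 3.28 and 3.215 in wild type. A group is called dim where both of its arrays read under 4, and all 3 groups were dim for it. The labels do not say what the grhB37 allele does to the transcript. The 3' minus 5' control difference for actin, a measure of RNA quality and labelling, was 1.41 ± 0.11 in grh overexpression, 1.29 ± 0.03 in grh mutant and 1.44 ± 0.03 in wild type (SD, n = 2 arrays each). For GAPDH it was 1.16 ± 0.09, 1.0 ± 0.04 and 0.98 ± 0.08, in the same order.

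The family, meaning here the 7 chosen members, did not move as a block. Peritrophin-A, obst-I and obst-J were counted with other peritrophin-like genes instead. In grh overexpression against wild type, obst-F, obst-B and obst-A were higher and obst-E, obst-H and Gasp were lower. In grh mutant against wild type, obst-H and obst-F were higher and obst-B, obst-E, obst-A and Gasp were lower. Of the 7 genes, 6 passed the minimum for testing (2 or more arrays with a log2 value of 4 or above), and each did so on all 6 arrays. The remaining member, obst-G, was listed at 2.27 on all 6 arrays, the lowest value the table holds.

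A row was called at a limma adjusted p under 0.05, adjusted over all 8632 rows tested. All 6 tested members were called in grh overexpression against wild type, 3 higher and 3 lower, where 80.1% of all rows were called, 36.0% higher and 44.1% lower. All 6 were called in grh mutant against wild type, 2 higher and 4 lower, where 80.9% of all rows were called, 36.3% higher and 44.6% lower. In grh overexpression against grh mutant 5 were called, 4 higher and 1 lower, where 86.6% of all rows were called, 42.9% higher and 43.7% lower. With so many rows called, the number of members called is near the background, and the size of each difference carries more than the call. The median absolute log2 difference of the 6 members was 0.67 in grh overexpression against wild type, where it was 0.46 over all rows, and 0.53 in grh mutant against wild type, where it was 0.49 over all rows. Counting only called differences of at least 2-fold, 1 member was higher and 1 lower in grh overexpression against wild type, where 13.1% and 8.27% of rows were. In grh mutant against wild type no member was at least 2-fold higher and 2 were at least 2-fold lower, where 10.8% and 7.06% of rows were. In grh overexpression against grh mutant 3 were at least 2-fold higher and none at least 2-fold lower, where 18.7% and 17.4% of rows were. The arrays of the 2 groups did not overlap for 6 of 6 members in either contrast with wild type, where 89.6% of rows did not overlap in grh overexpression and 90.3% in grh mutant. Grh overexpression and grh mutant arrays did not overlap for 5 of 6, where 93.5% of rows did not. The contrasts share the wild type arrays, so they are given side by side and not as separate evidence.

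**Figure D1:**
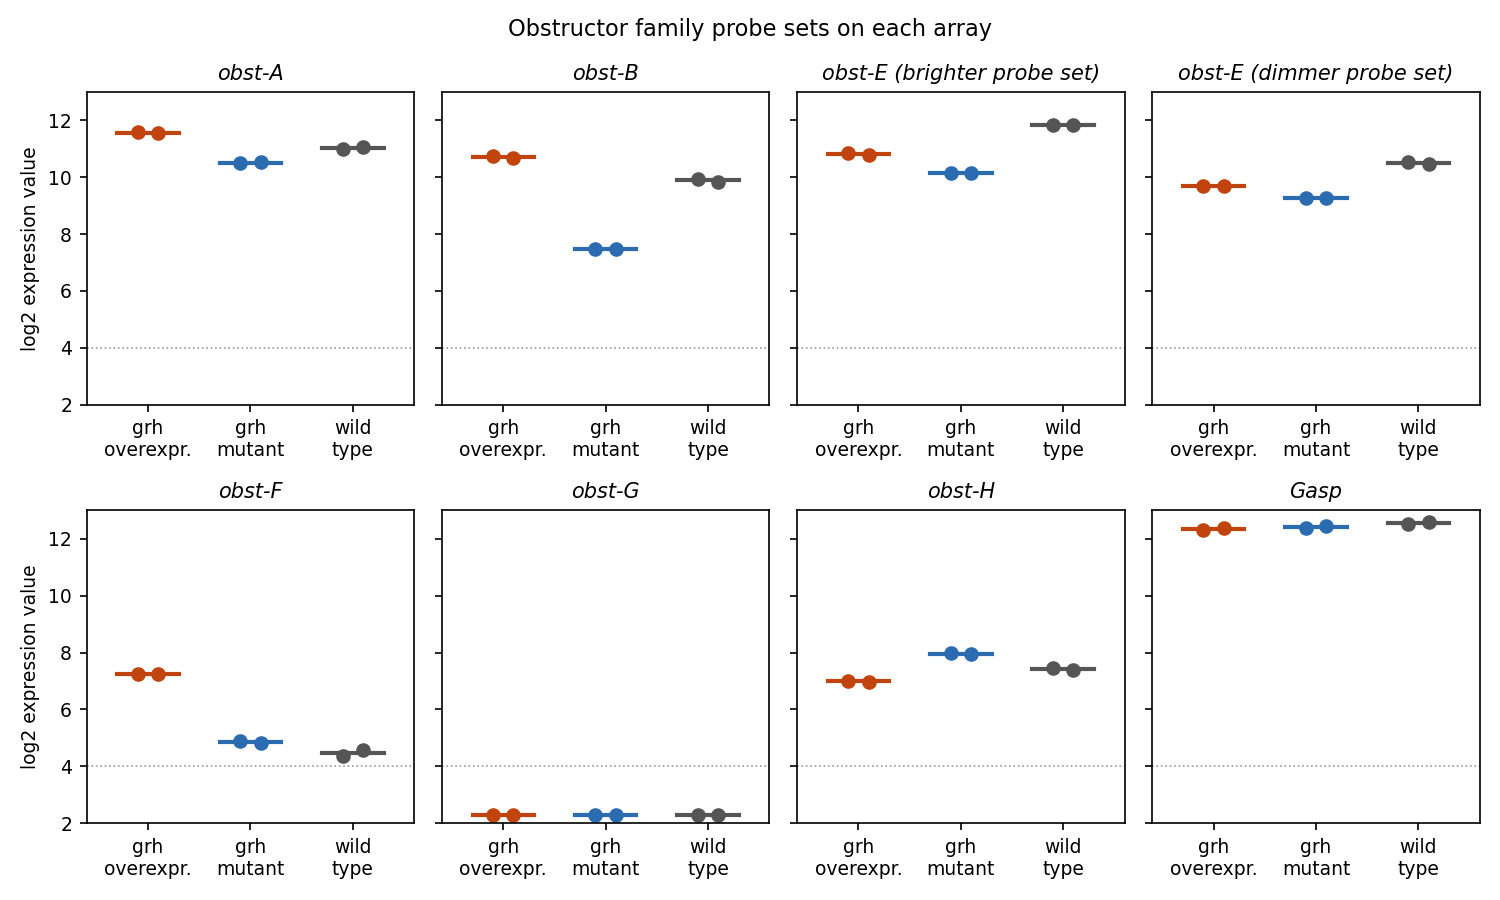
Log2 expression value (vertical axis) of each Obstructor probe set on every array of the 3 genotypes; points are single arrays, short lines are means of 2 arrays, and the dotted line marks the minimum of 4 used for testing. obst-B lies lowest in grh mutant near 7.47, obst-F is highest in grh overexpression near 7.24, and obst-G is at 2.27 on all arrays.

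Obst-A binds chitin in the forming cuticle and is needed, with the chitin deacetylase Serp and the chitin protector Knk, for a stable epidermal chitin matrix. The obst-A probe set read 11.60 and 11.54 in grh overexpression and 10.51 and 10.52 in grh mutant, against 10.99 and 11.07 in wild type. All values of grh overexpression lay above, and all of grh mutant below, those of wild type. The gene rose by 0.54 log2 units in grh overexpression (95% interval 0.45 to 0.63, 1.46-fold, limma adjusted p = 1.78e-07). It fell in grh mutant by a nearly equal amount, a log2 difference of -0.52 (95% interval -0.61 to -0.43, limma adjusted p = 2.94e-07). Between the altered genotypes the difference was 1.06 log2 units (2.08-fold, limma adjusted p = 2.42e-10). Both differences from wild type were of ordinary size on these arrays, since 43.7% of rows differed more in grh overexpression and 47.5% differed more in grh mutant. In whole embryos a smaller number of expressing cells and less transcript per cell cannot be told apart, here and for every member below.

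Obst-B is a chitin-binding protein of the same subgroup. It had the largest difference of the family in grh mutant. The obst-B probe set read 10.73 and 10.67 in grh overexpression and 7.47 and 7.46 in grh mutant, against 9.95 and 9.85 in wild type. The 2 grh mutant arrays lay more than 2 log2 units below every other array, and the grh overexpression arrays lay above wild type. In grh mutant the gene was 5.41-fold lower (95% interval 5.02 to 5.82, limma adjusted p = 6.53e-12), and only 70 of the 8632 rows had a larger decrease. In grh overexpression it was 1.74-fold higher (95% interval 1.62 to 1.88, limma adjusted p = 2.58e-08), a size that 29.1% of rows exceeded. The direct difference between the altered genotypes was 3.24 log2 units, or 9.43-fold (limma adjusted p = 9.81e-14). Genotypes thus ordered as grh overexpression, wild type, grh mutant for both obst-A and obst-B, with the 2 differences from wild type close to symmetric for obst-A and unequal for obst-B.

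Gasp is a luminal protein of the tracheal tubes, the antigen of a widely used tracheal antibody, and takes part in the expansion of the tube lumen. The Gasp probe set read 12.31 and 12.39 in grh overexpression and 12.38 and 12.46 in grh mutant, against 12.53 and 12.58 in wild type. Wild type was highest, and the altered genotypes overlapped each other. In grh overexpression Gasp was 1.15-fold lower (95% interval 1.08 to 1.23, limma adjusted p = 0.000636). In grh mutant it was 1.10-fold lower (95% interval 1.03 to 1.17, limma adjusted p = 0.00926). These were the smallest differences of the 6 tested members, and 74.5% and 83.9% of rows differed more in the same contrasts. The median row was itself at -0.079 and -0.07, so that Gasp lay 0.126 and 0.065 log2 units below it. The call in grh mutant was lost without grh mutant replicate 1 (log2 difference -0.098, adjusted p = 0.109) and without wild type replicate 2 (-0.11, adjusted p = 0.0582). It was also lost with no filter on low values (limma adjusted p = 0.103) and with no intensity trend (adjusted p = 0.0613). Between grh overexpression and grh mutant the difference of -0.07 was not called (95% interval -0.16 to 0.02, limma adjusted p = 0.127). It was called with the replicate number as a block (-0.07, limma adjusted p = 0.0277) and with the arrays centred on their medians (-0.191, limma adjusted p = 0.00139).

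Obst-E shapes how far the cuticle can expand and is known for its part in the form of the pupal body. The brighter of its 2 probe sets, which stood for the gene, read 10.85 and 10.80 in grh overexpression and 10.15 and 10.155 in grh mutant, against 11.83 and 11.84 in wild type. Both altered genotypes lay below wild type with no overlap, and grh mutant was lowest. The gene was 2.02-fold lower in grh overexpression (95% interval 1.90 to 2.13, limma adjusted p = 3.05e-10). It was 3.22-fold lower in grh mutant (95% interval 3.04 to 3.40, limma adjusted p = 1.28e-11), a decrease exceeded by 169 rows. Between the altered genotypes it was 0.67 log2 units higher in grh overexpression (limma adjusted p = 6.51e-09). Of the 6 tested members, obst-E and Gasp were lower in both altered genotypes, obst-E by more.

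The dimmer obst-E probe set gave the same order of genotypes with smaller differences. It read 9.70 and 9.69 in grh overexpression and 9.26 and 9.26 in grh mutant, against 10.54 and 10.47 in wild type. With every probe set tested as its own row, its log2 difference was -0.81 in grh overexpression (limma adjusted p = 1.05e-08) and -1.24 in grh mutant (limma adjusted p = 4.79e-10), where the brighter one gave -1.01 and -1.69. The gap between the probe sets, taken within each array, was 1.149 and 1.107 in grh overexpression, 0.885 and 0.894 in grh mutant, and 1.287 and 1.373 in wild type. The 3 genotypes did not overlap in that gap. The gap was widest where the brighter probe set read highest and narrowest where that probe set read lowest. No test was made of it. RefSeq lists 2 transcripts of obst-E, and the annotation does not say which of them each probe set reads.

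**Figure D2:**
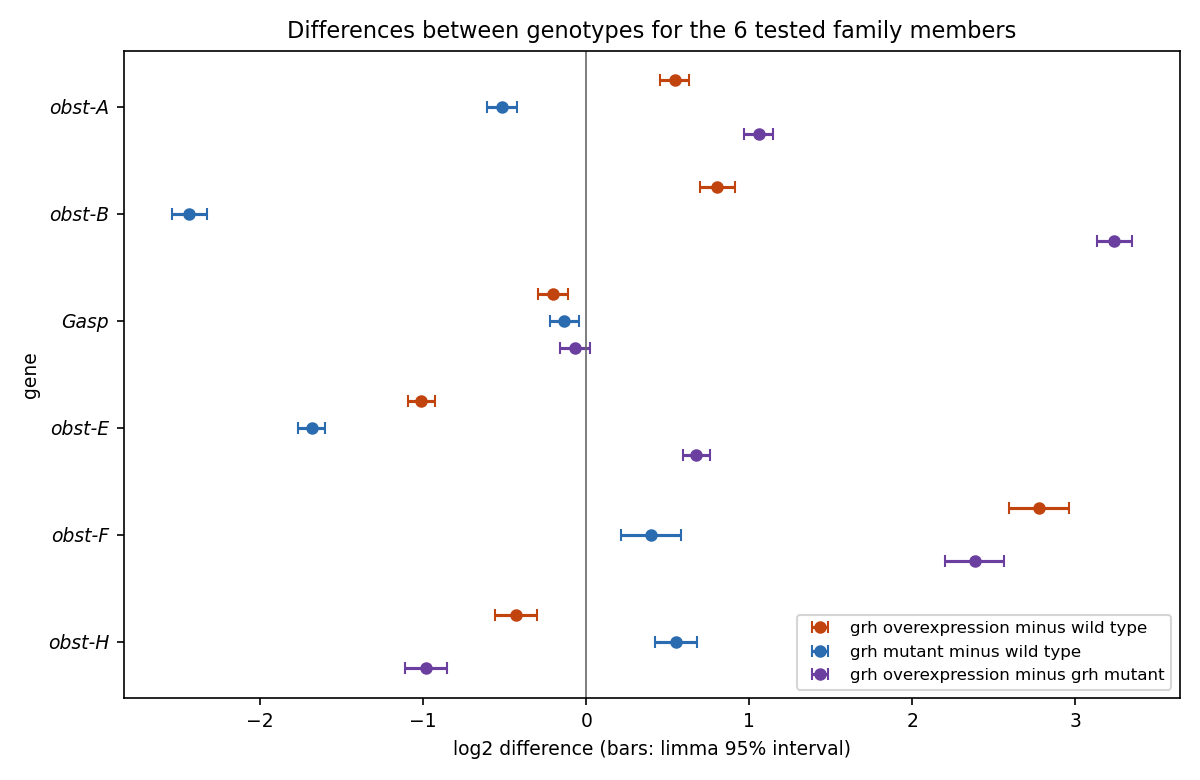
Log2 difference (horizontal axis) of each of the 6 tested members for grh overexpression minus wild type, for grh mutant minus wild type and for one altered genotype, grh overexpression, minus the other; points are limma estimates and bars are 95% intervals. obst-A and obst-B fall on opposite sides of 0 in the contrasts with wild type, and obst-H does so with the directions reversed. Both contrasts lie below 0 for obst-E and Gasp, and above 0 for obst-F.

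The second subgroup has members on the array with less known roles, and their functions are left out here. The obst-F probe set read 7.24 and 7.24 in grh overexpression and 4.88 and 4.83 in grh mutant, against 4.36 and 4.56 in wild type. Only the grh overexpression arrays lay far above the minimum of 4. The gene was 6.86-fold higher in grh overexpression than in wild type (95% interval 6.04 to 7.79, limma adjusted p = 4.70e-11), the largest increase of the family, and 246 of 8632 rows had a larger one. The grh mutant arrays were 1.32-fold higher (95% interval 1.16 to 1.50, limma adjusted p = 0.000922), a difference of 0.40 log2 units beside an SD of 0.14 over the 2 wild type arrays. Against grh mutant, grh overexpression was higher by 2.38 log2 units (limma adjusted p = 1.01e-10).

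The obst-H probe set ran opposite to obst-A and obst-B. It read 7.01 and 6.96 in grh overexpression and 7.99 and 7.95 in grh mutant, against 7.45 and 7.38 in wild type. Values of grh overexpression were lowest and those of grh mutant highest, with no overlap. The gene was 1.35-fold lower in grh overexpression (95% interval 1.23 to 1.47, limma adjusted p = 3.09e-05). In grh mutant it was 1.47-fold higher (95% interval 1.34 to 1.60, limma adjusted p = 3.47e-06). The direct difference of grh overexpression from grh mutant was -0.98 log2 units (limma adjusted p = 1.19e-08). For obst-G no difference can be given, since its 6 values are at the lowest value of the table.

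The members' differences from wild type ran from -1.01 to 2.78 log2 units in grh overexpression and from -2.43 to 0.55 in grh mutant. In grh overexpression against wild type, obst-F differed most, with 3.56% of rows differing more. It was followed by obst-E, with 21%, and obst-B, with 29.1%. In grh mutant against wild type the largest were obst-B, with 1.67% of rows differing more, and obst-E, with 5.31%. The remaining differences lay nearer the middle of all rows or below it. For obst-A, 43.7% of rows differed more in grh overexpression and 47.5% in grh mutant. For obst-H the shares were 52.5% and 44.7%, and for Gasp 74.5% and 83.9%. For obst-F in grh mutant the share was 57.5%.

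**Figure D3:**
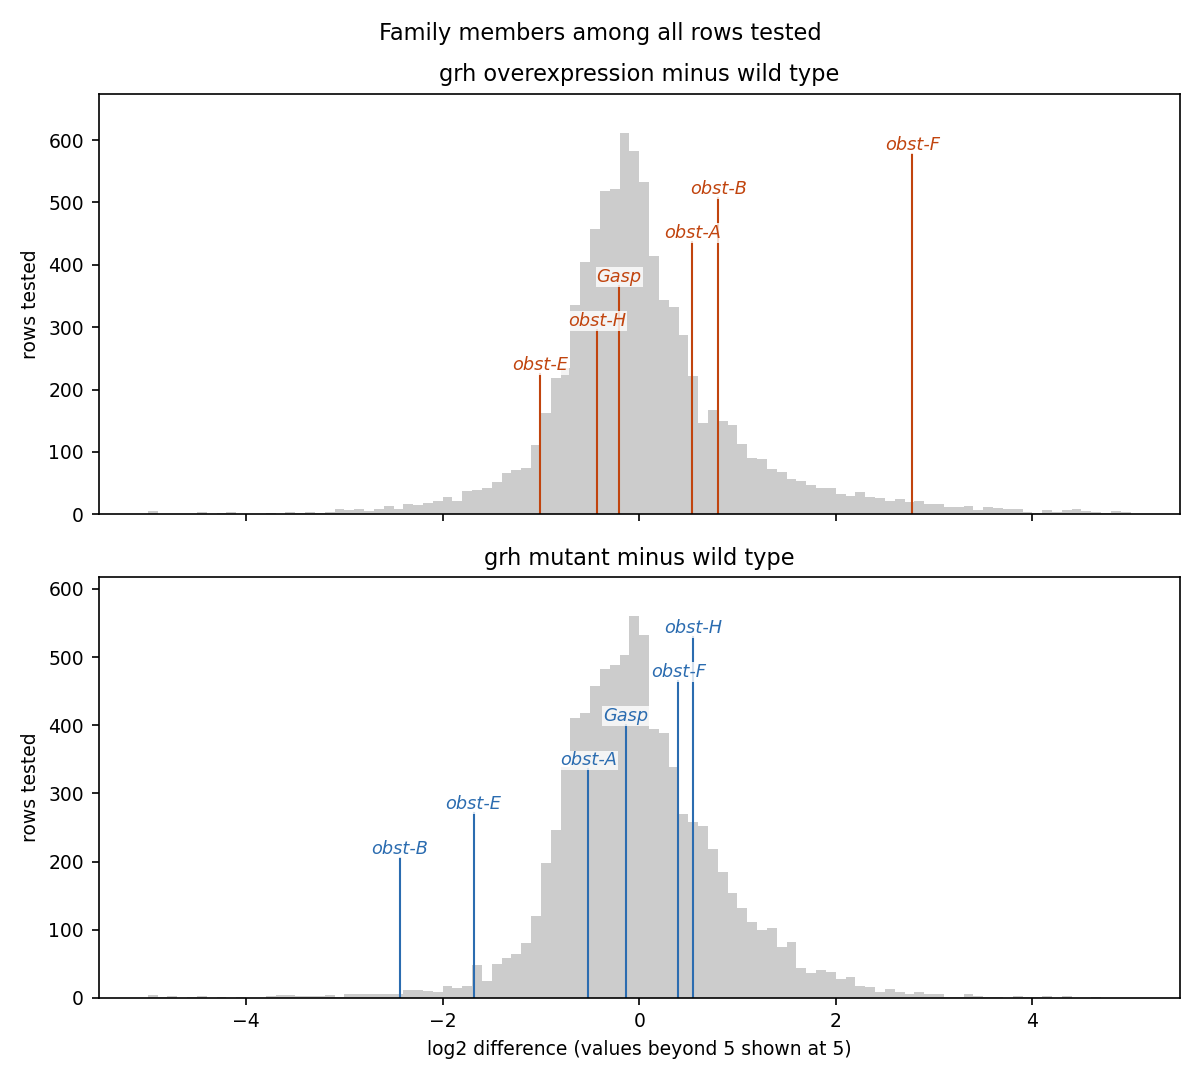
Number of rows tested (vertical axis) by log2 difference from wild type (horizontal axis), for grh overexpression above and grh mutant below, with the 6 tested members marked by lines. The line heights only separate the labels; obst-F stands at 2.78 in the upper panel, and obst-B at -2.43 and obst-E at -1.69 in the lower one.

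Likeness of pattern was measured as the distance in log2 units between the pairs of differences from wild type, over 6 arrays of 3 genotypes and 6527 other named genes that read at least 4 on every array. For obst-B the nearest genes were cathD, which encodes the lysosomal protease cathepsin D, at a distance of 0.41, CG14275 at 0.51 and CG40006 at 0.52. A single gene lay within 0.5 of obst-B. For obst-E the nearest were p47 at 0.07, CG18343 at 0.09 and CG13315 at 0.10, and 26 genes lay within 0.5. For obst-F they were shams, a glycosyltransferase gene, at 0.05, CG5506 at 0.09 and Cad89D, a cadherin gene, at 0.10, and 17 genes lay within 0.5.

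The other 3 members had far more genes near them. For obst-A the nearest were PGAP2 at 0.03, CG5618 at 0.05 and Oscillin, a glucosamine-6-phosphate deaminase gene, at 0.05, and 768 genes lay within 0.5. For obst-H they were Alg7, Cds and CG31259, each at 0.05, with 936 genes within 0.5. For Gasp they were mxc, ksr and CG15118, each at 0.01, with 1911 genes within 0.5. The radius of 0.5 was chosen after the values were seen.

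On the chromosomes the members are scattered. In the RefSeq table of assembly Release 6 plus ISO1 MT, obst-A lies on X, obst-B and obst-E on 2L, obst-F, obst-G and obst-H on 3L and Gasp on 3R. The nearest protein-coding gene after obst-A is Peritrophin-A, a member of the same protein subgroup. Its probe set differed from wild type by 0.09 log2 units in grh overexpression (limma adjusted p = 0.0934) and by 0.00 in grh mutant (limma adjusted p = 1), so it passed the threshold in neither contrast, where its neighbour obst-A passed in both. CG7298, which follows obst-F, was higher by 1.07 log2 units in grh overexpression (limma adjusted p = 5.37e-10) and by 0.38 in grh mutant (limma adjusted p = 5.78e-06), the same directions as obst-F. CG9171, after obst-E, was at -0.38 in grh overexpression (limma adjusted p = 0.00784) and 0.525 in grh mutant (limma adjusted p = 0.000942), the second opposite to obst-E. Obp83cd, an odorant-binding protein gene after Gasp, was at -0.615 (limma adjusted p = 8.65e-07) and 0.38 (limma adjusted p = 5.15e-05), the second opposite to Gasp. The gene model of obst-F overlaps that of CG42833 on its other side, and the annotation used here does not say whether its probes read both. CG7248, after obst-G, was higher by 2.08 in grh mutant (limma adjusted p = 1.15e-09), beside an obst-G at the lowest value on every array.

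Genes that make, organise, bind or cut chitin were listed beside the family, with 33 of 47 tested. Of these, 17 were higher and 10 lower in grh overexpression than in wild type, and 16 were higher and 14 lower in grh mutant. Over all rows 36.0% were higher and 44.1% lower in grh overexpression, and 36.3% and 44.6% in grh mutant, and the counts of each list and of the tissue markers below stand beside these same shares. A fold from a dim group is written "at least". The median fitted log2 difference of the listed genes was 0.10 in grh overexpression and 0.00 in grh mutant, where that of all rows was -0.079 and -0.07. With dim groups at their bound, and genes dim in both groups left out, it was 0.13 and 0.25. Among 7 tested genes of chitin synthesis, 2 were higher and 4 lower in grh overexpression (median -0.21). In grh mutant 1 rose and 5 fell (median -0.66). Gnpnat, an enzyme of the hexosamine route, was 1.97 log2 units higher in grh overexpression (limma adjusted p = 4.43e-11), and its log2 difference in grh mutant was -2.61 (limma adjusted p = 1.36e-11), the same directions as obst-B. The chitin synthase gene kkv was at 1.25 and -0.55 in the same contrasts. The enzyme gene mmy, which makes the sugar nucleotide used by chitin synthase, was at -0.54 and -1.96, lower in both as obst-E was. The gene reb, needed for chitin deposition, was at -1.31 and 1.12, and Gfat1 was at -0.21 and -2.96. Directions shared with a member, here and below, are description only, and the share of rows with each pair of directions was not counted.

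Of the 5 tested genes of chitin organisation and deacetylation, 3 were higher and 0 lower in grh overexpression (median 0.26), while in grh mutant 2 rose and 2 fell (median -0.03). The gene knk was at 2.24 log2 units in grh overexpression and -1.50 in grh mutant. The deacetylase gene Cda5 was at 0.585 and 1.40, serp at 0.26 and 0.25, and Cda4 at 0.03 in grh overexpression, which was not called (limma adjusted p = 0.47), and -0.80 in grh mutant. The deacetylase gene verm was called in neither contrast, at -0.06 and -0.03 (limma adjusted p = 0.182 and 0.54). Thus of the 2 partners of Obst-A named above, serp was higher in both altered genotypes, while knk followed the directions of obst-A with larger differences.

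Among 14 tested chitinases and imaginal disc growth factors, chitinase relatives that are thought to lack the catalytic activity, 10 were higher and 3 lower in grh overexpression (median 0.415, or 0.395 with dim groups at their bound). In grh mutant 9 rose and 5 fell, with a median of 0.66, or 0.77 with dim groups at their bound. The chitinase gene Cht5 was higher in both, at 5.07 in grh overexpression and 2.50 in grh mutant. Cht2 was at 2.15 and -1.64, the directions of obst-A and obst-B. Cht10 was 3.17 log2 units higher in grh overexpression, and at least 1.32-fold lower in grh mutant, where it was dim. Cht4 and Cht9 reached 4 only in grh overexpression, so the direction of their difference there was fixed by the filter. Both are counted among the 5 that fell in grh mutant although dim there and in wild type. Cht11, also among those 5, was dim in grh mutant and at least 1.04-fold lower there, with a mean of 4.06 in wild type. Idgf5 was at -1.51 and 0.765, Idgf3 at 1.38 and 1.42, and Idgf1 at 0.36 and 1.505.

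Of 16 other peritrophin-like and mucin genes, 7 were tested, and 2 were higher and 3 lower in grh overexpression (median 0.05, or -0.09 with dim groups at their bound). In grh mutant 4 were higher and 2 lower (median 0.84). Muc26B was 4.01 and Muc55B 2.30 log2 units higher in grh mutant, with -0.27 and 0.996 in grh overexpression. Mur29B was at least 6.09-fold higher in grh mutant, which was the sole group in which it reached 4, so that direction was fixed by the filter. The serine protease gene teq was at -0.71 in grh overexpression and 0.84 in grh mutant, the directions of obst-H, and obst-J, of the second Obstructor subgroup, was at -0.61 and -0.19 (limma adjusted p = 3.24e-07 and 0.00416). Mur18B was at 0.49 and -0.445. obst-I stayed under the minimum for testing.

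**Figure D4:**
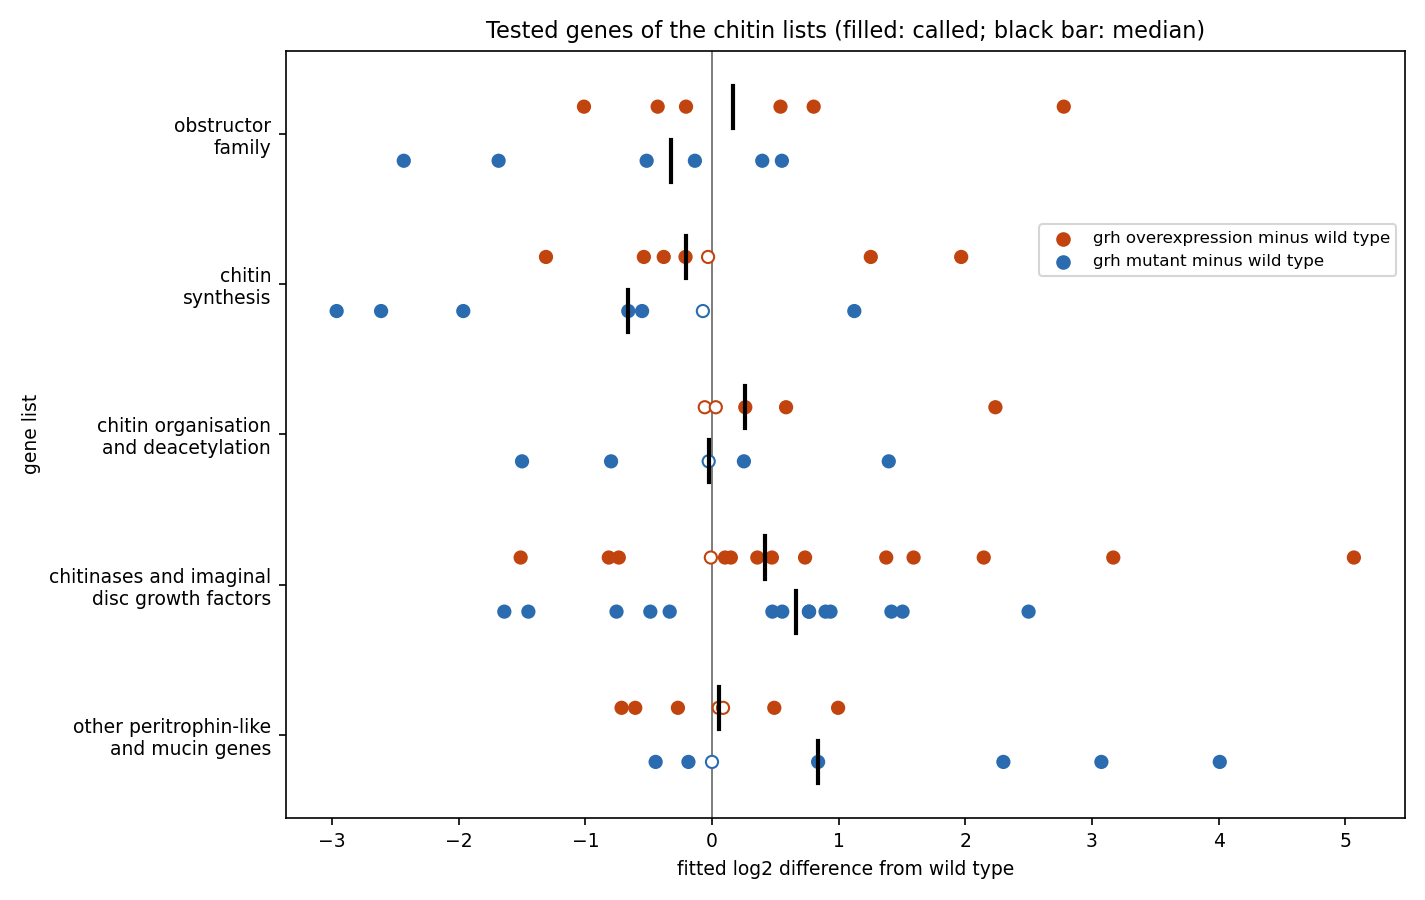
Fitted log2 difference from wild type (horizontal axis) of each tested gene of the Obstructor family and of 4 chitin lists (rows), in grh overexpression and grh mutant; filled points were called, open points were not, and black bars are medians of the fitted values. The median of the 6 tested members is 0.17 in grh overexpression and -0.33 in grh mutant. Peritrophin-A and obst-J are plotted with the other peritrophin-like and mucin genes. The largest value is that of Cht5 at 5.07.

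Markers of tissues moved on the same arrays. Of 8 tested epidermal markers, 7 were higher and 1 lower in grh overexpression than in wild type, and their mean log2 level ranged from 7.25 to 7.29 in grh overexpression and from 5.94 to 5.98 in grh mutant, against 5.82 to 5.84 in wild type. In grh mutant 4 were higher and 2 lower. Of these genes sha, at 2.48 in grh mutant and 2.375 in wild type, reached 4 only in grh overexpression, so that direction was fixed by the filter. Both mwh and neo were dim in wild type, at 3.545 and 3.70. The mean levels of the epidermal markers hold these dim values of sha, mwh and neo without a bound. The median fitted log2 difference of the epidermal markers was 2.09 in grh overexpression and 0.22 in grh mutant. With dim groups at their bound it was 1.62 and 0.04. Of 7 tested tracheal markers, 1 was higher and 4 lower in grh overexpression, and 4 were higher and none lower in grh mutant. Their mean log2 level ranged from 5.77 to 5.78 in grh overexpression and from 7.03 to 7.11 in grh mutant, against 6.42 to 6.48 in wild type, while the tracheal gene Gasp differed by less than 1.2-fold in both. The tracheal receptor gene btl was dim in grh overexpression, at 2.67, and entered the mean tracheal level at that value. The median fitted log2 difference of the tracheal markers there was -1.04, or -0.17 with dim groups at their bound. In grh mutant it was 0.49 either way. All 8 tested muscle markers were lower in grh overexpression and higher in grh mutant. Of 5 glial markers 0 were higher and 5 lower in grh overexpression, and 2 were higher and 2 lower in grh mutant. Of 6 hemocyte markers the counts higher and lower were 1 and 5 in grh overexpression, and 2 and 4 in grh mutant. The 1 counted higher in grh overexpression was Hml, dim there and in wild type at 2.82 and 2.485, and its direction in grh mutant, where alone it reached 4, was fixed by the filter. Of 7 neuronal markers they were 1 and 4 in grh overexpression, and 5 and 1 in grh mutant. These counts include brp, which reached 4 only in grh mutant, so its direction there was fixed, and which was dim in both grh overexpression and wild type at 3.45 and 3.99. The neuronal gene futsch was dim in wild type, at 3.13. Of 6 midgut markers they were 3 and 2 in grh overexpression, and 6 and 0 in grh mutant, and of 3 fat body markers 0 and 3, and 2 and 0. The midgut gene betaTry reached 4 only in grh mutant, so its direction was fixed too. The part of these shifts in the values of the Obstructor genes was not tested.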

How the data were processed

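The deposited table holds 1 log2 value per probe set and array. Per the submitters' processing notes GCRMA and MAS5 were used, with role, order and versions not stated there. The deposited values themselves show a log2 scale with a shared lowest value of 2.27 and no centring of genes, and they were used without further normalization. Per the labels, Trizol RNA received DNase before reverse transcription from random primers, and the label was biotin. The genome build is not given in the sources used. No depth applies to arrays: precision is limited by their number.

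Names came from the platform annotation, updated through gene identifiers to RefSeq symbols; 13647 had 1 symbol, 402 several and 4720 none, and 183 controls were left out. The probe set with the highest mean stood for a gene. Of 17104 rows, 8632 reached a log2 value of 4 on 2 or more arrays and were tested. With limma 3.58.1 (R 4.3.3), a 3-group model was fitted across the 6 arrays (eBayes with an intensity trend), with 3 residual degrees of freedom, to which the prior added 7.93. P-values are two-sided with Benjamini-Hochberg adjustment. The smallest p of an exact permutation test with 2 arrays a group is 0.333, so none was run. The bound of a dim group sets each of its values under 4 to 4. The fit was tested on simulated data.

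The members and the gene lists were chosen with earlier results of these data known. Named genes were all members and grh, the 3 nearest patterns of each member, and up to 4 genes of each chitin list with the largest differences in each contrast with wild type. The chromosomal neighbours, Cht9, Cht11, Idgf3, Idgf5, obst-I and the markers were named for context after their values were seen. Alternatives covered normalization, filters, probe set choice, the variance model, the arrays fitted, the replicate block and leaving out each array.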

Additional observations from a re-analysis of the deposited data

How the results depend on the processing

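All 128 counts of calls recomputed under the 16 alternatives stayed within 1.5 times the reported count, and 282 of 288 recomputed differences of single members kept their direction and their side of the threshold. The 6 exceptions were all Gasp, and none changed direction. Changing the filter, probe set choice, variance model or block, or leaving out arrays of the genotype not compared, did not alter a member's estimate. Under those alternatives only the side of the threshold could change. With 6 members tested, a family count could leave the limit of 1.5 times only by falling. Leaving out 1 array at a time gave 5 to 6 members called in grh mutant against wild type, 6 in grh overexpression against wild type and 5 in grh overexpression against grh mutant. For obst-B the grh mutant difference ranged from -2.48 to -2.38 over all alternatives, and for obst-F the grh overexpression difference from 2.66 to 2.88. Centring the arrays on their medians moved the median of all rows in grh overexpression minus grh mutant to -0.126, from -0.005, and Gasp was then called at -0.191 (adjusted p = 0.00139).

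With the replicate number as a block, the members called were 6 in grh overexpression against wild type, 6 in grh mutant against wild type and 6 in grh overexpression against grh mutant, the added call being Gasp (-0.07, adjusted p = 0.0277). The block gave 7127, 7171 and 7637 rows called, in the same order. Deviations of same-numbered arrays correlated at 0.136 to 0.245 across rows. The labels do not say that a number marks a shared batch, and whether same-numbered arrays were paired was not tested. The cause of the changed Gasp calls was not tested. Signal at the lowest value of the table, as for obst-G, leaves no difference to measure.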
